A study of Homo sapiens with 12 samples.

Results

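The combined effect of E2 and TNFα on MDA-MB-231-ERβ cells was examined by comparing the 3 E2+ TNFα libraries with the 3 vehicle (veh) libraries, which are 6 of the 12 RNA-seq libraries of the series and were chosen by their treatment labels. MDA-MB-231 is a TNBC cell line, and the ERβ derivative carries a transgene for full length human ERβ that is switched on by doxycycline (dox). All cells were seeded in charcoal-stripped serum, which is depleted of steroid hormones, and received dox to induce ERβ. Vehicle cells were given ethanol for 5 days, and E2+ TNFα cells were given 1 nM E2 (17β-estradiol) for 5 days together with 20 ng/ml TNFα during the final 3 h. The other groups used for reference are E2 alone (1 nM for 5 days) and TNFα alone (20 ng/ml for the final 3 h), with 3 libraries each. The labels name dox for vehicle, E2 and TNFα cells but not for E2+ TNFα cells, for which it is taken from the study's methods. ERβ thus came from a transgene in every group, no library of cells without dox was analysed here, and whether the line is a single clone is not given in the sources used here. Of the 12451 genes used, the 11303 with at least 1 RPKM (reads scaled to exon length and to the library total) in at least 3 of the 12 libraries were tested.

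ERβ, encoded by ESR2, is a nuclear receptor that binds DNA at estrogen response elements once estradiol occupies it, and that can also act through other factors. TNFα binds its receptor at the cell surface and activates the kinase complex that marks IκB proteins for destruction. NFκB dimers of RELA (p65) and NFKB1 then enter the nucleus and induce cytokines, chemokines and their own inhibitors, among them NFKBIA and TNFAIP3, within hours. The joint treatment therefore applies a brief NFκB stimulus to cells that have carried ligand-bound ERβ for days.

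Reads assigned to genes came to 35.8 to 39.9 M (M, mega) in the vehicle and 16.8 to 36.7 M in the E2+ TNFα libraries, against 7.65 to 15.8 M in E2 and 19.5 to 30.5 M in TNFα libraries. Levels are given as reads of a gene scaled to these totals after their adjustment by TMM factors (CPM). The summed levels of markers and the floor of 3 counts used below take the totals without that adjustment. Squared differences between replicates of a group were 10.2 to 71.3 times those of counting error (chi-square per degree of freedom). Tests therefore rest on the spread between replicates. ESR2 (chromosome 14 of hg38, 64172925 to 64338550) was at 486, 457 and 474 CPM in vehicle and at 433, 405 and 508 CPM in E2+ TNFα libraries. The 2 groups overlapped, with a log2 fold change of -0.08 (SE 0.12, adjusted p = 0.563), while E2 and TNFα cells held less, with means of 306 and 255 CPM. Markers of the line were present in all 6 libraries, with VIM at 421 to 566 RPKM, CD44 at 113 to 145 RPKM and AXL at 268 to 316 RPKM. CAV1 (48.2 to 126 RPKM), EGFR (11.5 to 48.8 RPKM) and MET (3.41 to 21.8 RPKM) were also present but varied more between these libraries. Of 17 leukocyte and endothelial markers, 5 were analysed here and 2 passed the filter, and their summed level was 104 to 114 CPM in vehicle and 84.3 to 102 CPM in E2+ TNFα libraries, nearly all of it CD68 (41.7 to 59.3 RPKM), which many cell types express.

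A gene was called regulated when its log2 fold change reached 1.5 in either direction with p below 0.05 and adjusted p no higher than 0.1. In E2+ TNFα relative to vehicle cells, 2837 of the 11303 genes were regulated (25.1%), of which 850 (7.52%) rose and 1987 (17.6%) fell. Without the size threshold, 9111 genes passed on their adjusted p, and the 2 groups did not overlap in CPM for 9222 genes (81.6%). The direction of these changes followed base composition, which was examined in 5 bins of equal gene number. In the bin with the lowest exon GC content (32.47 to 42%), the median log2 fold change was -1.64, with 24 genes that rose and 1253 that fell. The middle bin had a median of 0.13, and in the bin with the highest GC content (59 to 76.6%) the median was 0.70, with 340 genes that rose and 30 that fell. Across genes, which are not independent replicates, the Spearman correlation of the change was 0.67 with GC content and -0.32 with gene length.

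The trend lay mostly in vehicle, and the E2+ TNFα replicates differed from each other in it. Because levels are taken relative to a mean that includes vehicle, high values in vehicle lower those of the other groups. In the bin of lowest GC content, the median level relative to the mean of all 12 libraries was 1.18, 1.54 and 1.46 (log2) in the vehicle libraries. It was -0.17, 0.10 and -0.71 in E2+ TNFα replicates 1, 2 and 3, so that AT-rich genes were highest in replicate 2 and lowest in replicate 3 of that group. The labels name no batch. The paper reports a batch correction with RUVseq but does not say which libraries formed the batches. If vehicle cells were handled or sequenced apart, that difference and the vehicle treatment cannot be told apart. A factor of unwanted variation estimated from 20 housekeeping genes, as in RUVg, took values of 0.44 to 0.51 in the vehicle and -0.32 to -0.03 in all other libraries, and so nearly coincided with vehicle against the rest. A fit that includes this factor can hardly separate it from the change relative to vehicle. A call lost or a sign changed in that fit does not decide a direction. A second fit therefore removed from each library its loess trend with GC content and then with gene length, which left medians between -0.08 and 0.03 in the 5 bins.

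**Figure D1:**
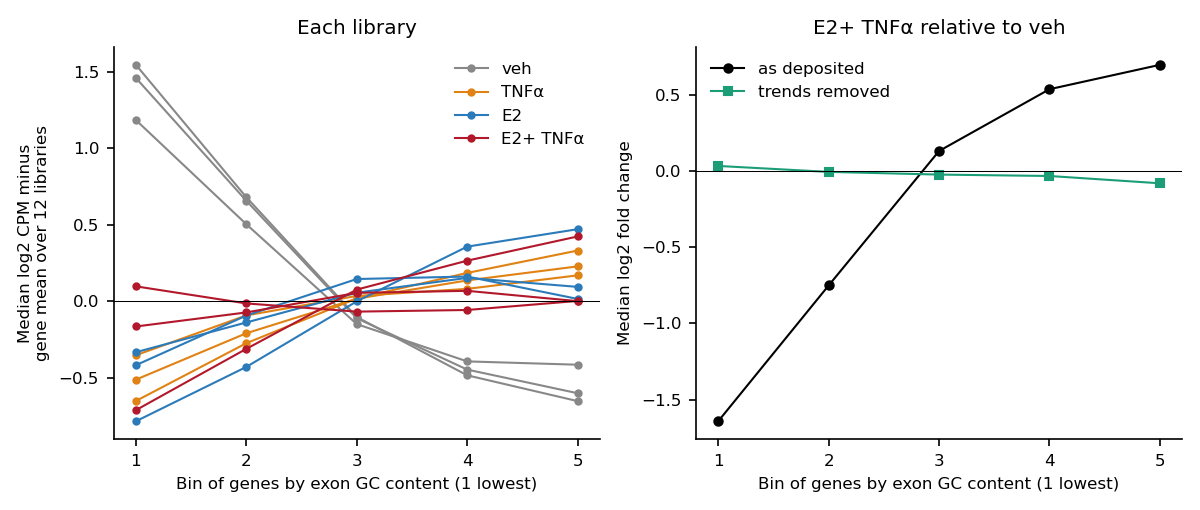
Left, median log2 CPM of each of the 12 libraries relative to the gene mean over all libraries, by bin of genes from lowest (1) to highest (5) exon GC content. Right, median log2 fold change of E2+ TNFα relative to veh in the same bins, which runs from -1.64 to 0.70 with counts as deposited and stays between -0.08 and 0.03 once the trends are removed.

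With the trends removed, 1228 genes were regulated (10.9%), of which 655 (5.79%) rose and 573 (5.07%) fell, and 8595 genes passed on their adjusted p without the size threshold. Past the thresholds in the same direction in both fits were 861 genes (7.62%), namely 440 that rose (3.89%) and 421 that fell (3.72%). No gene was called in opposite directions. Of the falls with counts as deposited, 1566 did not pass with the trends removed, and so did 410 of the rises, while 215 rises and 152 falls passed only with the trends removed. Changes are given below as the log2 fold change with counts as deposited and then with the trends removed, and neither fit is taken as the right one. The median of all genes tested was -0.03 in both. Counts in each gene list below are to be read beside these shares of all genes. With counts as deposited the shares were 7.52% for rises and 17.6% for falls.

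**Figure D2:**
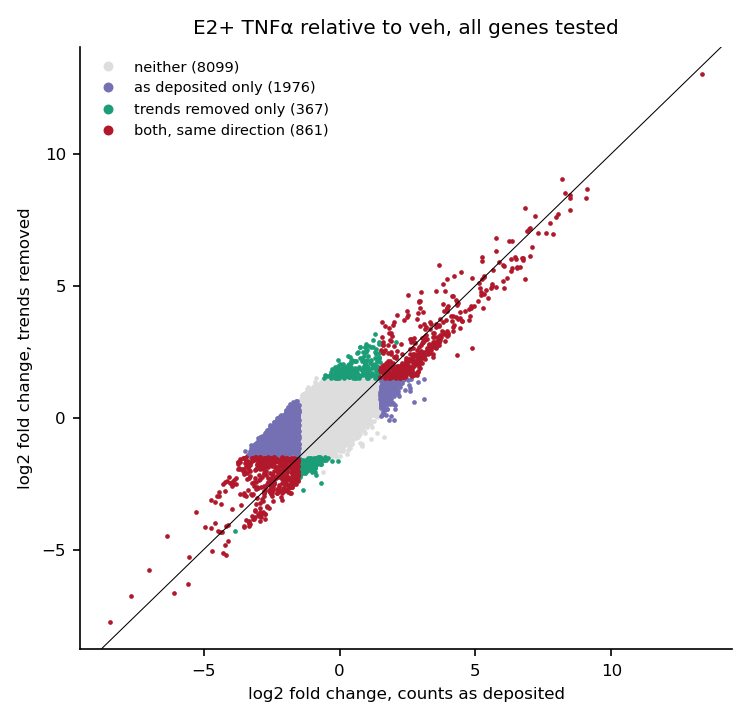
Log2 fold change of E2+ TNFα relative to veh for each of the 11303 genes tested, with counts as deposited (horizontal axis) and with the trends removed (vertical axis). The 861 genes called in the same direction in both fits lie along the diagonal at both ends, and the 1976 called only with counts as deposited are mostly falls to the left.

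The comparisons of E2+ TNFα with each agent alone contrast no vehicle library, although vehicle libraries enter the shared scaling and estimate of spread, and showed a weaker trend with GC content, with Spearman correlations of -0.33 relative to E2 and -0.21 relative to TNFα. Relative to E2, 46 genes were regulated (0.407%), of which 44 rose (0.389%) and 2 fell (0.0177%), and 48 (0.425%) with the trends removed. A fit of the E2 and E2+ TNFα libraries only called 30 genes, all of them rises. Relative to TNFα, 628 genes were regulated (5.56%), of which 401 rose (3.55%) and 227 fell (2.01%), and 593 (5.25%) with the trends removed. The 3 comparisons share the E2+ TNFα libraries, so their values are set side by side for each gene without an overlap being drawn from them.

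Among the cytokines and chemokines induced by NFκB, the joint treatment left a mixture of rises and falls relative to vehicle. Of the 25 members tested, 7 rose and 5 fell with counts as deposited, 7 rose and 4 fell with the trends removed, and 3 rose and 4 fell in both fits, with medians of 0.96 and 0.63. Relative to E2 alone, 12 of the 25 rose and none fell, and relative to TNFα alone 9 fell and 1, CCL5, rose. The counts relative to either agent stand beside backgrounds of 0.389% and 2.01% of all genes.

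TNF and LTB, 2 neighbouring genes on chromosome 6 that encode TNFα itself and lymphotoxin β, rose in both fits. TNF (31575567 to 31578336) was at 0.363, 0.259 and 0.328 CPM in vehicle and at 9.83, 7.56 and 8.90 CPM in E2+ TNFα libraries. Its log2 fold change was 4.77 (SE 0.26, adjusted p = 1.01e-09) and 4.13 with the trends removed. On the log2 scale it differed by 2.74 from E2 cells (1.24 CPM) and by -2.07 from TNFα cells (36.7 CPM). LTB (31580558 to 31582425) was at 4.23, 2.70 and 3.09 CPM in vehicle and at 98.2, 112 and 178 CPM in E2+ TNFα libraries, with changes of 5.28 and 4.16. The difference of LTB from E2 cells (37.9 CPM) was 1.78, and 1.48 and no longer past the thresholds without E2+ TNFα replicate 3, the highest of the 3. CCL2, a monocyte chemokine, also rose in both fits but stayed near 1 CPM in E2+ TNFα libraries (0.989, 1.47 and 0.509 CPM).

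For the best known NFκB cytokines, E2+ TNFα cells lay between E2 and TNFα cells. Relative to vehicle some of them were higher, such as IL6, and others changed little, such as CXCL2. IL6, the inflammatory interleukin of the acute phase response, was at 130, 138 and 147 CPM in vehicle and 354, 323 and 406 CPM in E2+ TNFα libraries. Its change of 1.38 (SE 0.12, adjusted p = 1.07e-07) missed the size threshold with counts as deposited and passed it with the trends removed (1.88). IL6 exceeded its level in E2 cells (96.2 CPM) by 1.91. In TNFα cells its mean was 1002 CPM, and the difference of -1.47 from them missed the threshold, which it passed without TNFα replicate 2 or E2+ TNFα replicate 3.

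IL1B, the secreted mediator of fever and leukocyte recruitment, was at 225, 231 and 236 CPM in vehicle and at 157, 148 and 152.5 CPM in E2+ TNFα libraries, which did not overlap. The changes of -0.60 and -0.38 were not past the size threshold, whereas IL1B was 2.28 above E2 cells (31.3 CPM) and differed by -3.39 from TNFα cells (1601 CPM). CXCL1 and CXCL2, neutrophil chemokines on chromosome 4, gave changes of 0.71 and 1.00, and -0.19 and 0.05, respectively. Relative to E2 cells CXCL1 rose by 1.95 and CXCL2 by 1.91, and relative to TNFα cells CXCL2 fell by 1.73. CSF2, the granulocyte and macrophage growth factor, was at 137 CPM in vehicle, 267 CPM in E2+ TNFα, 76.9 CPM in E2 and 818 CPM in TNFα cells, a rise of 1.80 from E2 and a fall of 1.61 from TNFα cells.

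CXCL8, the major neutrophil attractant, did not behave alike in the 3 replicates. It was at 889, 1103 and 1183 CPM in vehicle and at 362, 696 and 119 CPM in E2+ TNFα replicates 1, 2 and 3, the order that AT-rich genes showed in that group (33.43% GC). Its changes were -1.43 (SE 0.51) and -0.10, and the second turned to 0.12 without E2+ TNFα replicate 3. No direction relative to vehicle was thus kept across fits. The fall with counts as deposited passed the thresholds without vehicle replicate 1 or E2+ TNFα replicate 2. The value of 4.45 (SE 0.87) with the unwanted factor decides no direction, because that factor nearly coincided with vehicle. The difference from E2 cells (39.2 CPM) was 3.29 and past the thresholds. CCL20, another AT-rich chemokine gene (35.63% GC), was at 1.11, 1.68 and 0.479 CPM in E2+ TNFα and 0.339 to 0.438 CPM in vehicle libraries, and passed with the trends removed (2.86) but with counts as deposited (1.44) only when vehicle replicate 3 or E2+ TNFα replicate 3 was left out. In bulk RNA, a change in these levels cannot be told apart as more or fewer cells that express a gene or more or less RNA per cell.

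The 4 cytokine genes that fell in both fits were also below TNFα cells. IL24, a cytokine of the IL10 family, was at 85.9, 90.3 and 97.3 CPM in vehicle and 4.57, 4.27 and 4.79 CPM in E2+ TNFα libraries. It fell by 4.32 (SE 0.28, adjusted p = 8.01e-09) in either fit, and stood at 4.56 CPM in E2 and 54.1 CPM in TNFα cells. IL11, a gp130 cytokine linked to bone metastasis, was at 179, 159 and 165 CPM in vehicle and 28.6, 23.4 and 26.8 CPM in E2+ TNFα libraries, with changes of -2.68 and -3.36. In TNFα cells IL11 was at 497 CPM, from which E2+ TNFα cells differed by -4.24, and in E2 cells at 27.6 CPM. TNFSF15, a ligand of the TNF superfamily, fell by 3.97 and 2.60, from 9.70 to 0.574 CPM, against 0.447 CPM in E2 cells. CSF3, the granulocyte growth factor, fell by 1.76 and 2.48, from 12.3 to 3.55 CPM, against 1.42 CPM in E2 cells and 113 CPM in TNFα cells, a difference of -4.96 from the latter.

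**Figure D3:**
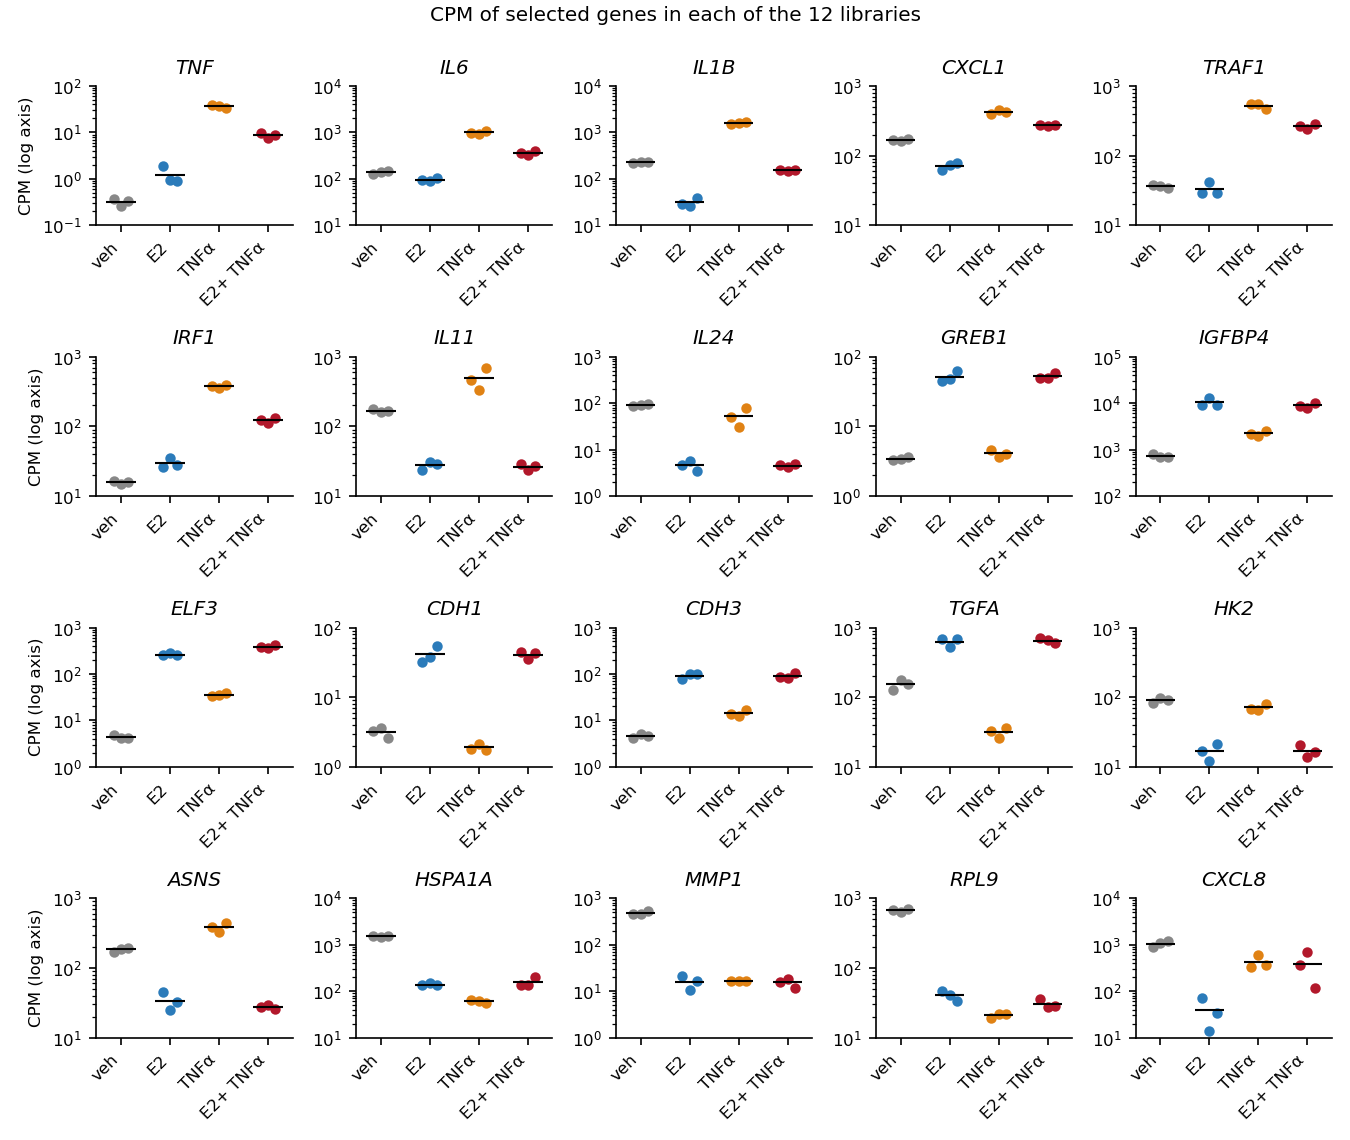
CPM on a log axis of 20 genes in each of the 12 libraries (points) with the mean of each group (bars). TNF, IL6, CXCL1, TRAF1 and IRF1 lie between E2 and TNFα in E2+ TNFα cells, IL11, IL24, HK2 and ASNS lie at the E2 level, GREB1, IGFBP4, ELF3, CDH1, CDH3 and TGFA are high in both groups given E2, and HSPA1A, MMP1 and RPL9 set vehicle apart from the 3 treated groups.

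κB sites were looked for in the promoters of these genes, since NFκB dimers bind DNA at such sequences. In the 250 bases before the RefSeq start (GRCh38.p14), the letters GGGA and CC with any 4 bases between them, read on both strands and with overlapping matches counted, were found for 2513 of the 9019 tested genes with a promoter sequence (27.9%). They were found for 10 of 18 cytokine genes (55.6%), 11 of 20 genes for NFκB subunits and inhibitors (55.0%), 17 of 38 genes that rose relative to E2 (44.7%) and 2 of 12 estrogen receptor targets (16.7%). The first 2 lists were drawn up as NFκB genes. The genes that rose relative to E2 include 12 of the cytokine genes and 4 of the subunits and inhibitors, so these 3 shares are not separate observations. Among genes that rose relative to vehicle in both fits, 89 of 322 held a match (27.6%), close to the share among all tested genes. The 4 promoters below belong to genes that rose relative to E2 and whose match lies within 100 bases of the start; capitals mark the match.
IL6, chr7:22726950-22727199, plus strand, match from 73 bases before the start: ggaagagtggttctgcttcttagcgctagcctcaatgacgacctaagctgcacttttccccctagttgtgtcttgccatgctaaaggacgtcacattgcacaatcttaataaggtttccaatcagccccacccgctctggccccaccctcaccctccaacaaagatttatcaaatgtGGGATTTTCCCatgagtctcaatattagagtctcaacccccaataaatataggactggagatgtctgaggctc
CXCL2, chr4:74099196-74099445, minus strand, match from 78 bases before the start: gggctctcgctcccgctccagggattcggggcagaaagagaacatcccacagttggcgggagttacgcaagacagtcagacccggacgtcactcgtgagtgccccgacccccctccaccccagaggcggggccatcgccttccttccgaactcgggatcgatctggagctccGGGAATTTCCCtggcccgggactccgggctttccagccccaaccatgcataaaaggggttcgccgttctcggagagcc
TNFAIP3, chr6:137867009-137867258, plus strand, match from 67 bases before the start: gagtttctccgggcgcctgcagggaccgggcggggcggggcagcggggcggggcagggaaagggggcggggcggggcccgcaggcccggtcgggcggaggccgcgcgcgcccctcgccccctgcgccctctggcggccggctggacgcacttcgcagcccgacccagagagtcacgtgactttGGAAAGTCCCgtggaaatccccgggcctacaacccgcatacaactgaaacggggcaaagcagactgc
IRF1, chr5:132490774-132491023, minus strand, match from 50 bases before the start: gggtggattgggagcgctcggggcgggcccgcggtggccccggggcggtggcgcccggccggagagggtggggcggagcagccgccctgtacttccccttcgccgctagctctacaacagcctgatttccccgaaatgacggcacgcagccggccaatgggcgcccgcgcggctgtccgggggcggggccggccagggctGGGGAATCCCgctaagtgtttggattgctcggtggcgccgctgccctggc
In IL6 and CXCL2 the letters can be read on both strands with an offset of 1 base, so that 11 bases are capitalised. No match in these windows was found for TNF, TRAF1, IL1B, IL11, IL24, ELF3 or IGFBP4, which says only that these letters are not within the 250 bases.

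Relative to vehicle, NFκB subunits and feedback inhibitors rose about as often as all genes once the trends were removed (5.79% of all genes) and in both fits (3.89%). With counts as deposited they rose more often than all genes (7.52%). Of the 23 tested, 5 rose and 2 fell with counts as deposited, 2 rose and none fell with the trends removed, and TRAF1 alone rose in both, with medians of 0.75 and 0.40. Relative to E2 cells 4 of the 23 rose and none fell, against 0.389% of all genes that rose. Relative to TNFα cells 1 rose and none fell. TRAF1, an adaptor of TNF receptors, was at 37.3, 36.4 and 34.8 CPM in vehicle and at 262, 241 and 283 CPM in E2+ TNFα libraries. Its changes were 2.86 (SE 0.14, adjusted p = 4.21e-10) and 2.32, and it was 2.97 above E2 cells (33.7 CPM), which were at the vehicle level.

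NFKBIA, the IκBα inhibitor, was at 68.8, 71.2 and 73.1 CPM in vehicle and 280, 245 and 305 CPM in E2+ TNFα libraries, and passed with counts as deposited (1.96) but not with the trends removed (1.40). TNFAIP3, the deubiquitinase A20 that ends NFκB signalling, was at 162, 195 and 183 CPM in vehicle and 396, 385 and 414 CPM in E2+ TNFα libraries. The changes of 1.14 and 1.12 missed the size threshold, and the rise of 2.57 from E2 cells (67.2 CPM) passed it. RELA itself, the p65 subunit, changed by 0.75 and 0.03 and was at 305 CPM in E2+ TNFα, 349 CPM in E2 and 315 CPM in TNFα cells. BIRC3, an inhibitor of apoptosis induced by NFκB, was at 119, 191 and 49.1 CPM in E2+ TNFα replicates and so overlapped vehicle (58.5, 78.3 and 73.9 CPM), with changes of 0.77 and 2.69. BIRC3 was higher than in TNFα cells (11.02 CPM) by 3.44 and is AT-rich (36.18% GC).

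Interferon-stimulated genes rose more often than they fell. Of the 29 tested, 8 rose and 3 fell with counts as deposited, 7 rose and none fell with the trends removed, and 6 rose in both (IFIT1, IRF1, ISG15, ISG20, OAS1 and OASL). The medians were 0.95 and 0.61. Relative to TNFα cells 12 of the 29 rose, against 3.55% of all genes, and relative to E2 cells only IRF1 did. IRF1, a transcription factor induced by interferon γ and NFκB, was at 16.5, 14.9 and 15.9 CPM in vehicle and 123, 112 and 133 CPM in E2+ TNFα libraries, with changes of 2.95 (SE 0.13, adjusted p = 7.49e-11) and 2.503. It was 2.05 above E2 cells (29.7 CPM) and differed by -1.63 from TNFα cells (378 CPM).

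OASL and OAS1, of the oligoadenylate synthetase family linked to sensing of double-stranded RNA, were high in both groups given E2. OASL was at 11.8, 9.80 and 10.2 CPM in vehicle and 113, 100.1 and 117 CPM in E2+ TNFα libraries, and OAS1 rose from 1.04 to 8.29 CPM on average. Their changes were 3.37 and 2.75 for OASL and 2.99 and 2.74 for OAS1. In E2 cells OASL was at 128 CPM and OAS1 at 10.9 CPM, and in TNFα cells they were at 15.6 and 1.64 CPM, from which E2+ TNFα cells differed by 2.82 and 2.33. ISG20, an exonuclease, rose by 2.53 and 2.19, and its change was 1.03 and not past the thresholds with the unwanted factor included. Among the 18 genes for MHC class I and antigen processing, none rose and 2 fell with counts as deposited, 1 rose and 1 fell with the trends removed, and the median changed sign from 0.23 to -0.30. PSME2, a subunit of the proteasome activator PA28, fell in both fits, from 58.0 to 10.7 CPM (-2.45 and -3.16), and was as low in E2 (10.5 CPM) and TNFα cells (8.64 CPM).

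Estrogen receptor targets rose, at means close to those of E2 cells. Of the 25 listed, 14 were tested, and 8 of the 14 rose in both fits (CISH, CTSD, GREB1, HSPB8, IGFBP4, PDZK1, TFF1 and TGFA), while NRIP1 fell with counts as deposited only. The medians of 2.24 and 2.05 were the highest of the lists with more than 2 tested members, against -0.03 for all genes. Members hardly detected in vehicle, such as TFF1, passed the filter only through other groups, which favours rises. With at least 10 counts required in every library, 12 genes were left, with 6 rises, 2 falls and a median of 1.63. Relative to TNFα cells 8 of the 14 rose, against 3.55% of all genes. None of the 14 was called relative to E2 cells, where only 0.407% of all genes were, so that count says little.

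GREB1, the growth regulator that serves as a classical readout of estrogen action in breast cells, was at 3.29, 3.43 and 3.61 CPM in vehicle and 50.3, 49.5 and 58.5 CPM in E2+ TNFα libraries. Its changes were 3.94 (SE 0.17, adjusted p = 5.92e-11) and 4.03, and it was at 51.6 CPM in E2 and 4.12 CPM in TNFα cells. IGFBP4, which binds insulin-like growth factors, was at 798, 686 and 699 CPM in vehicle and 8800.3, 7909 and 10146 CPM in E2+ TNFα libraries. Its changes were 3.62 and 2.82, and the difference from TNFα cells (2233 CPM) was 2.003.

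PDZK1, a scaffold protein, rose by 2.85 and 3.74 from 2.54 to 18.3 CPM, and CTSD, the lysosomal protease cathepsin D, by 3.12 and 2.25 from 171 to 1487.5 CPM. CTSD changed by 1.37 and was not past the thresholds with the unwanted factor included, and its difference of 1.59 from TNFα cells was lost without E2+ TNFα replicate 3. TFF1, the trefoil factor, did not exceed 3 counts in any vehicle library and reached 0.680, 1.33 and 0.899 CPM in E2+ TNFα libraries, which is at least 11.6-fold higher against a floor of 3 counts per library. ALOX5AP, which activates leukotriene synthesis, gave changes of -1.21 and -1.33 that missed the size threshold, the second passing it without E2+ TNFα replicate 3, and was past it with the unwanted factor (-3.88). The estrogen response element, GGTCA and TGACC with any 3 bases between them, was found in 1 of the 9019 promoters, and in none of those of the 12 estrogen receptor targets with a promoter sequence. With a sequence this rare no match was to be expected in so few promoters, so its absence says nothing about these genes. The paper also places most ERβ binding sites far from gene starts.

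In the mesenchymal and epithelial list, the epithelial genes ELF3, CDH1, CDH3 and KRT19 rose in both fits, and no gene fell in both. Of the 21 genes of mesenchymal and epithelial state, 8 rose and 2 fell with counts as deposited, 5 rose and none fell with the trends removed, and 4 rose in both, with medians of 0.46 and 0.87. Whatever their size, 15 changes were upward and 6 downward with counts as deposited. With the trends removed 13 were upward and 8 downward, the lowest at -1.49. EPCAM, another epithelial marker, was at 5.8 to 9.62 RPKM over the vehicle and E2+ TNFα libraries. ELF3, an epithelial transcription factor (chromosome 1, 202010519 to 202017188), was at 4.76, 4.14 and 4.07 CPM in vehicle and 386, 360 and 419 CPM in E2+ TNFα libraries. Its changes of 6.49 (SE 0.14, adjusted p = 1.49e-13) and 6.02 were the largest of the list, and ELF3 was higher than in either E2 (262 CPM) or TNFα cells (36.0 CPM), past the thresholds only in the second case (3.43). CDH1, the epithelial cadherin, was at 3.24, 3.62 and 2.58 CPM in vehicle and 43.9, 34.9 and 43.2 CPM in E2+ TNFα libraries, with changes of 3.69 and 3.75. CDH3, the placental cadherin, rose by 4.28 and 3.80, and KRT19, a simple epithelial keratin, by 2.90 and 2.07 to 2113 CPM. CDH1 and KRT19 were at 1.90 and 270.5 CPM in TNFα cells. Of the mesenchymal members, VIM changed by -0.06 and -0.70, SNAI2 by 0.26 and 1.43 (past the thresholds with the trends removed without E2+ TNFα replicate 2), and ZEB1, a repressor of CDH1, fell from 23.3 to 2.72 CPM, past the thresholds with counts as deposited (-3.11) but not with the trends removed (-1.37).

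Cystatins, inhibitors of cysteine proteases, and S100 calcium-binding proteins had medians of 1.69 and 0.88. Of the 20 tested, 12 rose and 1 fell with counts as deposited and 6 rose and 1 fell in both fits. Here too, members hardly detected in vehicle passed the filter only through other groups. With at least 10 counts required in every library, 13 were left, with 7 rises, no fall and a median of 1.52. The 4 type 2 cystatin genes CST1, CST2, CST4 and CST5 lie together on chromosome 20 and are close copies of each other, so reads may be shared between them. CST1 was at 15.4, 12.9 and 12.3 CPM in vehicle and 607, 525 and 655 CPM in E2+ TNFα libraries (5.46 and 4.54), and CST4 rose from 10.1 to 279.6 CPM (4.79 and 3.86). CST2 rose by 6.65 and 5.71 and CST5 by 7.01 and 6.12. All 4 were below 10 CPM in TNFα cells and above their E2+ TNFα mean in E2 cells. CST7, a cystatin of immune cells, fell from 7.14 to 0.988 CPM (-2.88 and -3.76), with an adjusted p of 0.150 when the unwanted factor was included. S100A7, the skin protein psoriasin, did not exceed 3 counts in any vehicle library and had 10.9, 13.9 and 8.51 CPM in E2+ TNFα libraries, at least 133-fold higher against the floor. S100A9, a subunit of calprotectin, was at least 119-fold higher.

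Among the largest rises, those without a named pseudogene or a pseudogene in their exons were also high in E2 cells. TNS4, a tensin at focal adhesions, was at 0.774, 0.893 and 0.788 CPM in vehicle and 291, 250.3 and 338 CPM in E2+ TNFα libraries, with changes of 8.48 (SE 0.23, adjusted p = 8.97e-13) and 7.86. CXCL14, a chemokine of epithelia, rose by 8.05 and 7.72 to 177 CPM, F13A1, the transglutaminase of clot stabilisation, by 8.30 and 8.5 to 30.7 CPM, and MGAT3, a glycosyltransferase, by 7.94 and 7.62 to 23.9 CPM. GJA5, the gap junction protein connexin 40, rose by 7.01 and 7.17, and MAB21L4 was at least 424-fold higher against the floor. In E2 cells TNS4 was at 326, CXCL14 at 208, F13A1 at 34.6 and MGAT3 at 22.0 CPM, and in TNFα cells at 2.25, 0.758, 0.0110 and 0.733 CPM. Of the 11 EGF receptors and ligands, 1 rose and 1 fell with counts as deposited and in both fits, and 3 rose and 1 fell with the trends removed, with medians of 0.03 and 0.35. TGFA, a ligand of EGFR, rose from 127, 178 and 156 CPM to 699, 651 and 595 CPM (2.08 and 2.25), and was far above its level in TNFα cells (31.5 CPM). LRIG3, a member of the LRIG family, fell by 1.85 and 1.65, and was not called with the unwanted factor (adjusted p = 0.281).

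**Figure D4:**
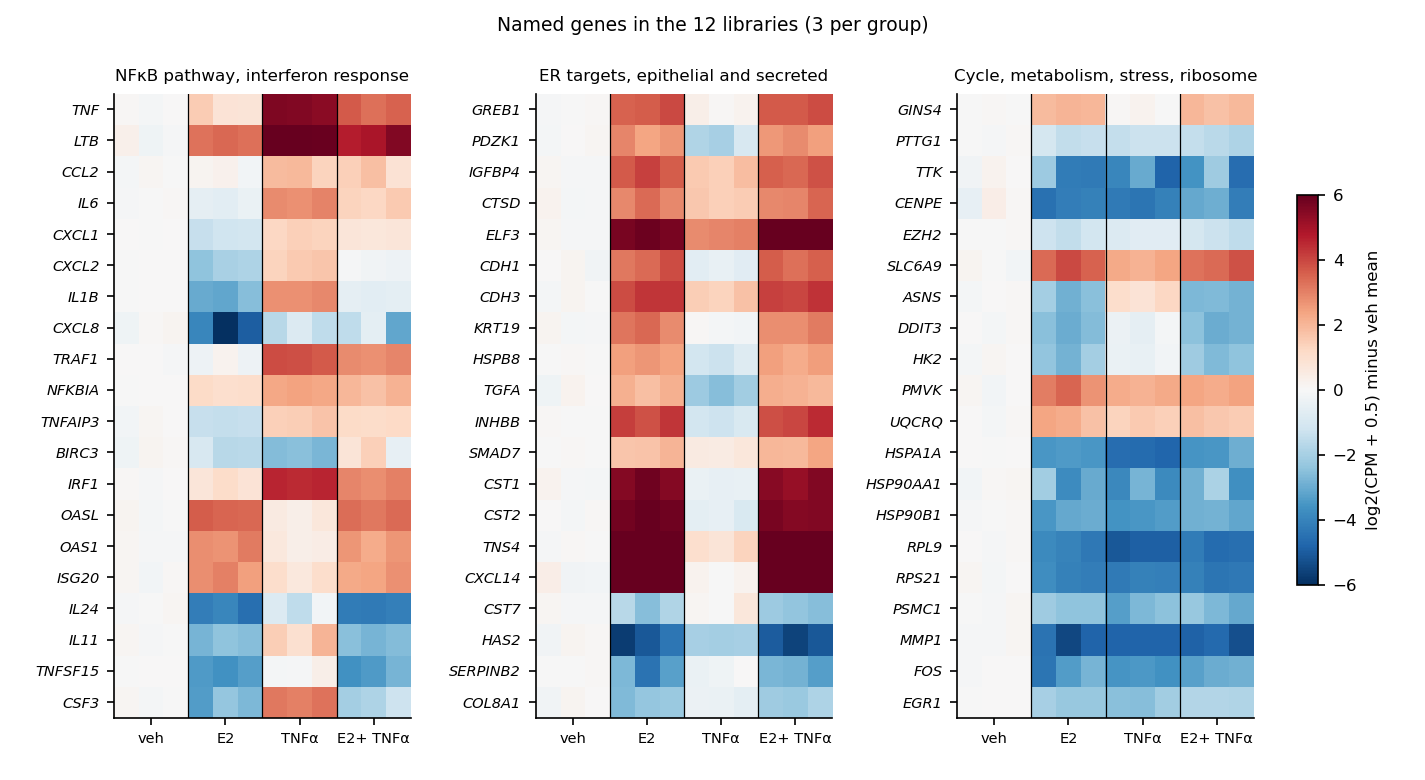
Log2(CPM + 0.5) minus the vehicle mean of 60 genes (rows) in the 12 libraries (columns), on a colour scale capped at -6 and 6. In the E2+ TNFα columns the NFκB genes TNF, TRAF1 and IRF1 are paler than in the TNFα columns, estrogen receptor and epithelial genes are coloured much as in the E2 columns, and CXCL8, TTK and HSP90AA1 differ among the 3 E2+ TNFα replicates.

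Of the 35 collagens, laminins and integrins tested, 2 rose and 10 fell with counts as deposited, 1 rose and 6 fell with the trends removed, and 1 rose and 4 fell in both, with medians of -0.62 and -0.52. Their rises were no more frequent than those of all genes (7.52% with counts as deposited and 3.89% in both fits). COL8A1 fell from 365 to 86.6 CPM (-2.07 and -2.66) and COL4A1, of the basement membrane, from 136 to 32.8 CPM (-2.05 and -1.66). COL13A1 (-1.54 and -2.19) and ITGB3 (-1.63 and -1.74) also fell, and both calls were lost with counts as deposited when E2+ TNFα replicate 2 was left out.

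Of the 21 matrix proteases and inhibitors, 3 rose and 4 fell with counts as deposited and 2 rose and 4 fell with the trends removed and in both, with medians of 0.49 and -0.09. Among all genes, 17.6% fell with counts as deposited, 5.07% with the trends removed and 3.72% in both. MMP1, the interstitial collagenase, was at 453, 459 and 524 CPM in vehicle and 15.8, 18.6 and 11.9 CPM in E2+ TNFα libraries. Its changes were -4.96 (SE 0.22, adjusted p = 1.13e-10) and -4.16, and the level was the same size in E2 (16.1 CPM) and TNFα cells (16.7 CPM). MMP3, the neighbouring stromelysin gene, behaved likewise (100.2 to 3.85 CPM, -4.71 and -4.19). MMP2, the gelatinase, rose from 0.671 to 5.31 CPM (2.99 and 2.39) and ADAM12 from 2.82 to 9.73 CPM (1.78 and 2.15). SERPINB2, an inhibitor of plasminogen activators, fell from 117 to 14.6 CPM, with changes of -3.001 and -1.68, and of -1.28 and not past the thresholds with the unwanted factor included. HAS2, a hyaluronan synthase, fell from 33.2 to 0.415 CPM (-6.36 and -4.48), close to E2 cells (0.597 CPM) and below TNFα cells (7.90 CPM), and SCG5, a secretory granule chaperone, fell by 4.38 and 4.34 (-3.16 and not past with the unwanted factor).

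Of the 27 genes of the TGFβ and BMP pathway, 4 rose and 7 fell with counts as deposited, 3 rose and 2 fell with the trends removed, and 2 rose and 2 fell in both, and the median changed sign from -0.36 to 0.12. INHBB, an activin subunit, rose from 2.09 to 45.02 CPM (4.43 and 3.77) and SMAD7, an inhibitor of TGFβ signalling, from 9.08 to 41.0 CPM (2.17 and 1.58). BMPER, an extracellular BMP modulator, fell by 3.19 and 2.88, and ID2, a BMP target, by 2.28 and 1.65. The fall of ID2 with the trends removed was lost without E2+ TNFα replicate 2, and neither fall was past the thresholds with the unwanted factor.

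**Figure D5:**
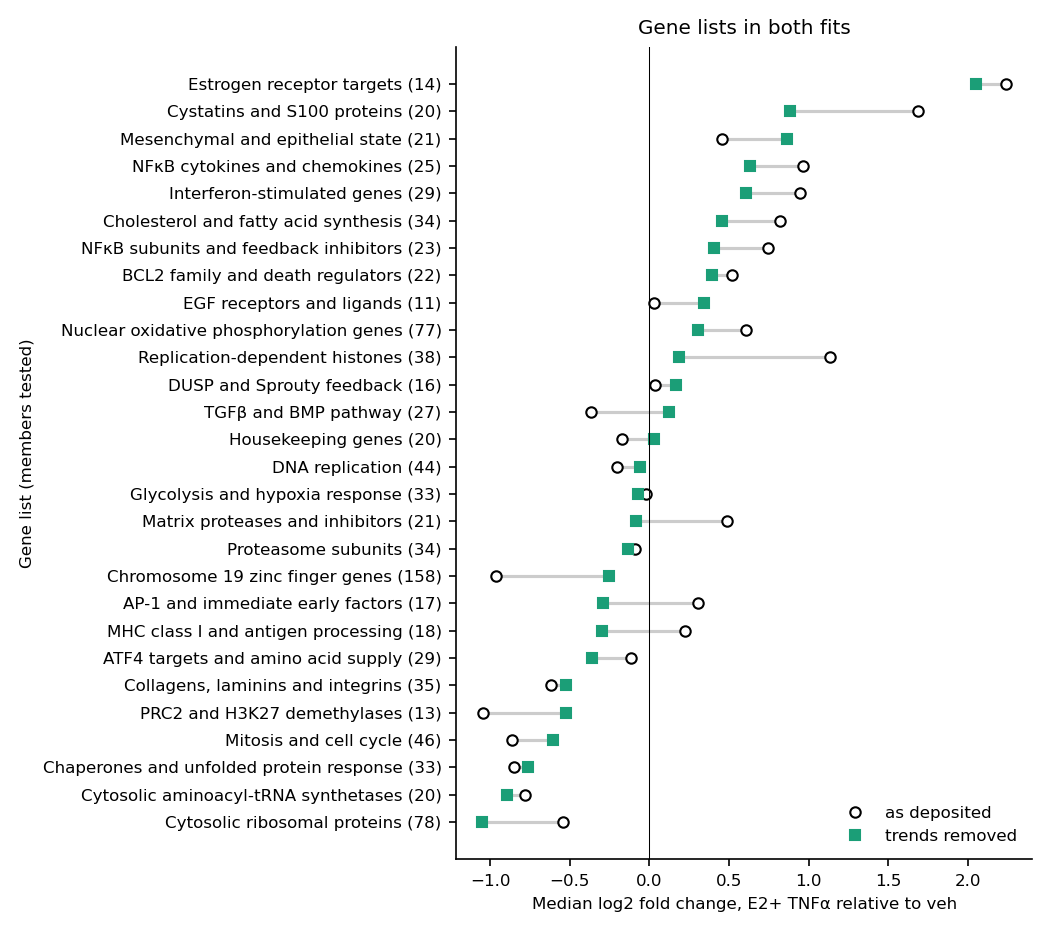
Median log2 fold change of E2+ TNFα relative to veh over the tested members of 28 gene lists (number in brackets), with counts as deposited (circles) and with the trends removed (squares). Estrogen receptor targets have the highest median in both fits, and the histone median of 1.14 with counts as deposited comes down to 0.19.

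Cell cycle genes were lower in E2+ TNFα cells with counts as deposited, and much of this was not past the thresholds once the trends were removed. Of the 46 mitotic and cell cycle genes, 1 rose and 22 fell with counts as deposited, none rose and 5 fell with the trends removed, and 4 fell in both, with medians of -0.86 and -0.61. With the unwanted factor included, 3 rose and none fell (median -0.15). The 5 falls with the trends removed became 2 without E2+ TNFα replicate 3, 3 without vehicle replicate 2 and 8 without E2+ TNFα replicate 2. PTTG1, the securin that holds sister chromatids together, was at 108, 103 and 115 CPM in vehicle and 39.8, 35.6 and 29.6 CPM in E2+ TNFα libraries. Its changes were -1.64 and -2.01, with -0.90 and no call with the unwanted factor included.

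TTK, a spindle checkpoint kinase, was at 25.1, 33.3 and 29.5 CPM in vehicle and 1.98, 6.33 and 0.749 CPM in E2+ TNFα replicates, again highest in replicate 2 and lowest in replicate 3. Its changes of -3.26 and -1.68 turned to 3.04 (not past the thresholds) with the unwanted factor and lost its call with the trends removed when E2+ TNFα replicate 3 was left out. CENPE (-3.56 and -1.51) and NDC80 (-2.91 and -1.50), both of the kinetochore, were at the threshold with the trends removed and lost the call when single libraries were left out, CENPE without vehicle replicate 2 or E2+ TNFα replicate 3 and NDC80 without vehicle replicate 1 or 3 or E2+ TNFα replicate 1 or 3. NDC80 changed sign (0.31) and CENPE came to -0.15 with the unwanted factor. CCND1, cyclin D1, went the other way, from 298 to 899 CPM, past the thresholds with counts as deposited (1.59) and not with the trends removed (1.35), and was at 857 CPM in E2 and 309.7 CPM in TNFα cells.

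Of the 44 DNA replication genes, 1 rose and 8 fell with counts as deposited, 2 rose and 2 fell with the trends removed, and 1 rose and 2 fell in both, with medians of -0.20 and -0.06, and 4 rose and none fell with the unwanted factor included (median 0.34). Falls were about as frequent as among all genes (17.6% with counts as deposited, 5.07% with the trends removed and 3.72% in both). GINS4, a subunit of the replicative helicase, rose from 54.3 to 204 CPM (1.91 in either fit), at a level shared with E2 (217 CPM) but not TNFα cells (57.6 CPM, a difference of 1.82). POLE2, a subunit of DNA polymerase ε, fell by 2.52 and 1.55, and RFC4, of the clamp loader, by 1.75 and 1.53. With the trends removed, both falls lost the call without E2+ TNFα replicate 1, that of POLE2 also without E2+ TNFα replicate 3 and that of RFC4 without vehicle replicate 3, and neither passed with the unwanted factor (-0.01 and -1.21). The 38 replication-dependent histone genes tested showed the reverse pattern, with 14 rises and no fall with counts as deposited (median 1.14) and no call with the trends removed (median 0.19), and 6 rises and no fall with the unwanted factor included (median 0.98). After subtraction of the median of tested genes in the same of 20 bins of GC content, without regard to length, the histone median was 0.59. Of the 13 genes for PRC2, the complex that deposits H3K27me3, and for H3K27 demethylases, none rose, 2 fell with counts as deposited (MTF2 and SUZ12) and none with the trends removed, with medians of -1.04 and -0.53. These falls were no more frequent than those of all genes (17.6% with counts as deposited and 5.07% with the trends removed). EZH2, the PRC2 methyltransferase, was at 31.9, 31.7 and 34.4 CPM in vehicle and 15.6, 13.02 and 11.1 CPM in E2+ TNFα libraries, which did not overlap, and its changes of -1.31 and -1.15 missed the size threshold. SUZ12 fell by 2.47 with counts as deposited and stood at -0.69 with the trends removed.

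Genes of amino acid supply that ATF4 controls were often lower than in TNFα cells. Of the 29 tested, 4 rose and 6 fell with counts as deposited, 1 rose and 5 fell with the trends removed, and 1 rose and 3 fell in both, with medians of -0.11 and -0.36. Relative to TNFα cells, 13 of the 29 fell and none rose, against 2.01% of all genes. ASNS, asparagine synthetase, was at 169.9, 189 and 196 CPM in vehicle and 27.7, 29.5 and 25.4 CPM in E2+ TNFα libraries, with changes of -2.75 (SE 0.18, adjusted p = 7.21e-09) and -2.77. It was at 33.8 CPM in E2 and 383 CPM in TNFα cells, from which E2+ TNFα cells differed by -3.80. DDIT3 (CHOP), a stress-induced transcription factor, fell from 48.9 to 6.92 CPM (-2.84 and -3.08), against 38.8 CPM in TNFα cells (-2.499). PHGDH, the first enzyme of serine synthesis, was at 2.82 CPM in vehicle, 2.68 CPM in E2+ TNFα, 3.02 CPM in E2 and 39.6 CPM in TNFα cells, a fall of 3.89 from the last. SLC6A9, a glycine transporter, rose from 21.0 to 244 CPM (3.54 and 2.87).

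Of the 20 cytosolic aminoacyl-tRNA synthetases, none rose, and 7 fell with counts as deposited, 2 with the trends removed and 1 in both, with medians of -0.78 and -0.89. NARS fell by 2.51 and 1.58, came to -0.22 with the unwanted factor and lost the call with the trends removed without E2+ TNFα replicate 3. AARS, with changes of -1.07 and -1.57, was at 174 CPM against 562 CPM in TNFα cells. Among the 33 genes of glycolysis and the hypoxia response, 1 rose and 4 fell with counts as deposited, none rose and 3 fell with the trends removed, and 2 fell in both, with medians of -0.02 and -0.07. HK2, a hexokinase, was at 81.5, 96.7 and 90.9 CPM in vehicle and 20.3, 13.9 and 16.2 CPM in E2+ TNFα libraries (-2.42 and -2.47), against 16.8 CPM in E2 and 71.1 CPM in TNFα cells. SLC2A3, a glucose transporter, fell by 1.92 and 1.55, and lost the call with the trends removed without E2+ TNFα replicate 2 and with the unwanted factor.

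Of the 34 genes of cholesterol and fatty acid synthesis, 6 rose and 2 fell with counts as deposited, 2 rose and none fell with the trends removed, and 1, PMVK of the mevalonate pathway, rose in both (2.38 and 1.68), with medians of 0.82 and 0.46. PMVK changed by 1.13 and was not past the thresholds with the unwanted factor. Of the 77 nuclear genes of oxidative phosphorylation, 5 rose and 4 fell with counts as deposited, 8 rose and 1 fell with the trends removed, and UQCRQ rose and ATP5ME fell in both, with medians of 0.61 and 0.30. With the unwanted factor included, 18 rose and 1 fell (median 0.59). UQCRQ, of complex III, went from 65.6 to 208 CPM (1.66 in either fit).

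Some chaperone and ribosomal protein genes fell relative to vehicle, and most were not called in both fits. Of the 33 chaperones and genes of the unfolded protein response, 1 rose and 10 fell with counts as deposited, and none rose and 7 fell with the trends removed and in both, with medians of -0.85 and -0.76. HSPA1A and HSPA1B, near-identical heat shock genes between which reads can be split, were at 1538, 1489.7 and 1553 CPM and, for HSPA1B, at 1749 CPM on average in vehicle. In E2+ TNFα libraries HSPA1A was at 133, 135 and 201 CPM, with changes of -3.29 (SE 0.15, adjusted p = 1.96e-10) and -4.01, and HSPA1B fell by 2.98 and 3.71. HSPA1A was at 139 CPM in E2 and 60.3 CPM in TNFα cells. HSP90B1, the chaperone of the endoplasmic reticulum, fell by 2.94 and 1.93, and HSP90AA1, its cytosolic relative, had changes of -2.64 and -2.46 with 174, 347 and 101 CPM in E2+ TNFα replicates. HSP90AA1 turned to 1.69 (not past) with the unwanted factor.

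Among the 78 cytosolic ribosomal proteins tested, 1 rose and 22 fell with counts as deposited, 1 rose and 23 fell with the trends removed, and 1 rose and 19 fell in both, with medians of -0.54 and -1.05, and 2 rose and 13 fell with the unwanted factor included (median -0.45). All 78 have pseudogenes named after them, between which and the gene reads may be split. None of the 78 was regulated relative to E2 or TNFα cells, against 0.407% and 5.56% of all genes. With so few calls relative to E2 in general, the lack of one there says little. RPL9 was at 674, 627 and 701 CPM in vehicle and 35.4, 27.1 and 28.5 CPM in E2+ TNFα libraries (-4.46 and -4.30), and at 40.4 CPM in E2 and 21.1 CPM in TNFα cells, with 18 named pseudogenes. RPS21 (-4.29 and -5.14), RPS28 (-4.17 and -5.21) and RPL7 (-4.22 and -4.83) fell as far, and RPL7 changed sign (0.89, not past) with the unwanted factor. RPS10, whose exons overlap those of the readthrough gene RPS10-NUDT3, rose by 2.61 and 1.72, the second call being lost without E2+ TNFα replicate 1. Over all tested genes, the 296 with at least 5 named pseudogenes had 15 rises and 70 falls with counts as deposited and 10 rises and 34 falls with the trends removed. Without ribosomal protein genes, the 236 left had 9 rises and 14 falls with the trends removed, against 576 and 476 among the 9538 genes with no named pseudogene.

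Of the 34 proteasome subunits, none rose and 4 fell with counts as deposited, 2 rose and 3 fell with the trends removed, and PSMA3, PSMC1 and PSMC6 fell in both, with medians of -0.09 and -0.14. The 4 falls with counts as deposited were no more frequent than those of all genes (17.6%). With the trends removed 5.07% of all genes fell, and 3.72% fell in both. With the unwanted factor included, 4 of the 34 rose and none fell (median 0.19). PSMC1, an ATPase of the regulatory particle, fell from 145 to 22.8 CPM (-2.68 and -2.53), and was past the size threshold (-1.55) but not called with the unwanted factor. PSMC6 (-3.86 and -2.35) and PSMA3 (-3.40 and -2.33) turned to 1.36 and 0.95, neither past the thresholds, with that factor. The 17 AP-1 and immediate early factors had 3 rises and 3 falls with counts as deposited, 1 rise and 4 falls with the trends removed, and 1 rise and 3 falls in both, and their median changed sign from 0.31 to -0.29. Their falls with counts as deposited were as frequent as those of all genes (17.6%), which fell in 5.07% with the trends removed and 3.72% in both. FOS fell from 13.6, 14.3 and 14.5 CPM to 1.05, 1.36 and 1.47 CPM (-3.42 and -3.88), FOSB by 1.89 and 2.54, and EGR1 from 58.0 to 16.6 CPM (-1.80 and -2.44), and all 3 were low in E2 and TNFα cells as well (0.930 and 0.761 CPM for FOS). The FOSB call was lost with the unwanted factor (-2.63). KLF10, a TGFβ-inducible factor, rose by 1.53 and 1.90, and its call with counts as deposited was lost without vehicle replicate 1. ATF3, with changes of -1.48 (past without vehicle replicate 1 or E2+ TNFα replicate 1) and -2.05, was at 15.8 CPM against 68.8 CPM in TNFα cells. Of the 16 DUSP and Sprouty genes, which restrain MAPK signalling, 1 rose with counts as deposited and 1 fell with the trends removed, and none was called in both, with medians of 0.04 and 0.17.

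Several of the largest changes fell on features that overlap pseudogenes or other genes or have named copies, and how reads were divided between them was not tested. MIR622 (chromosome 13, 90231182 to 90231277) had no read in vehicle and was at 48.9, 43.9 and 53.7 CPM in E2+ TNFα libraries, at least 582-fold higher against the floor, and the pseudogene KRT18P27 lies across its exon. EDARADD rose from 7.90 to 1708 CPM (7.75 and 7.37) and NHSL2 from 0.453 to 132 CPM (8.18 and 9.06), with the pseudogenes ENO1P1 and TPT1P15 within their exons. These 3 were also high in E2 and TNFα cells, at 2490.4 and 1538 CPM for EDARADD. MTRNR2L8 and MTRNR2L12, nuclear copies of a mitochondrial ribosomal RNA, were among the largest falls, MTRNR2L8 at least 78.9-fold lower against the floor and MTRNR2L12 with changes of -7.002 and -5.79. SARNP, an mRNA export factor whose exons overlap other genes, fell by 5.53 and 5.26.

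Of the 158 chromosome 19 zinc finger genes tested, which encode mostly KRAB repressors in AT-rich exons, 11 rose and 52 fell with counts as deposited (median -0.96), and 3 rose and 4 fell with the trends removed and in both (median -0.25). With the unwanted factor included, 10 rose and 2 fell (median -0.11). ZNF534 rose from 0.120 to 10.3 CPM (6.34 and 6.67), ZNF428 by 2.82 and 2.04 and ZNF607 by 1.91 and 2.495. ZNF331 fell from 23.7 to 5.54 CPM (-2.09 and -2.13), followed by ZNF439 (-2.73 and -1.65), ZNF570 (-1.95 and -2.01) and ZNF724 (-1.84 and -1.89), and the latter 3 were not past the thresholds with the unwanted factor. The call of ZNF439 with the trends removed was also lost without E2+ TNFα replicate 1. ZNF534 was at 11.02 CPM in E2 and 11.3 CPM in TNFα cells.

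In the remaining lists few members passed in both fits. Of the 22 BCL2 family genes and death regulators, 3 rose and 2 fell with counts as deposited, 2 rose and none fell with the trends removed, and BIK, a pro-apoptotic member, rose in both (2.45 and 1.61), with medians of 0.52 and 0.39. The BIK call with the trends removed was lost without vehicle replicate 3 or E2+ TNFα replicate 2. Of the 20 housekeeping genes, none rose and 1 fell with counts as deposited, 1 rose and 1 fell with the trends removed, and none passed in both, with medians of -0.17 and 0.03. Among the 11 cell identity genes tested, 3 rose and 1 fell with counts as deposited, and CDH1 alone rose with the trends removed and in both. LYZ, a lysozyme of myeloid and secretory cells and 1 of the 2 leukocyte and endothelial markers tested, rose from 0.102 to 2.34 CPM (4.45 and 5.53), with 1.68 CPM in E2 and 0.199 CPM in TNFα cells.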

How the data were processed

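Polyadenylated RNA of 12 dishes of MDA-MB-231-ERβ cells was sequenced in pairs of reads. The authors aligned reads to hg38 with TopHat2 2.1.0 and deposited raw counts per gene made with featureCounts, whose strand setting is not given in the sources used here. Their RUVseq correction is not part of the deposited counts. Of 12567 entries, 46 exact repeats and 70 rows under an alias were dropped, and 11303 of 12451 genes with at least 1 RPKM in at least 3 of the 12 libraries were tested. Counts were fitted with edgeR 4.0.16 (R 4.3.3), with TMM scaling, the mean of each of the 4 groups, the quasi-likelihood test and Benjamini-Hochberg adjustment. All p-values come from this tool. A second fit took loess trends (span 0.3) of each library with exon GC content and then length as offsets. Alternatives used DESeq2 1.42.0, other filters and scalings, an unwanted factor and left-out libraries. The study states biological replicates for its in vitro experiments in general and, for these libraries, cells plated in triplicate dishes. Whether the dishes of a group came from separate cultures is not given in the sources used here, and p-values measure only the spread between them, which may be technical. Members and lists were chosen with earlier results of these data known. Named were 15 set genes, the 10 largest rises and falls called in both fits (mean of at least 5 CPM, no overlap), and up to 4 of each per list, with other members given by value. Some genes that this rule names are not reported here. Promoters are from RefSeq (GRCh38.p14).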

Additional observations from a re-analysis of the deposited data

How the results depend on the processing

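Relative to vehicle, the count of 2837 regulated genes came to 1439 (799 rises and 640 falls) with the unwanted factor and 1228 with the trends removed. Without single libraries it was 2477 to 3164 with counts as deposited and 1199 to 1352 with the trends removed. Scaling by library size gave 3040 genes (609 rises) and moved the median of all genes from -0.03 to -0.26. Relative to E2, the 46 genes became 24 with at least 10 counts in every library, 30 in a fit of these groups only, and 32 to 84 without single libraries, the highest without E2 replicate 3. Relative to TNFα, the count was 582 to 732 without single libraries. With the trends removed, leaving out single libraries gave 40 to 71 genes relative to E2 and 580 to 627 relative to TNFα.

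Of 3552 alternative values of the 156 log2 fold changes in the text, 3375 kept direction and side of the threshold. Of the others, 80 lost and 69 gained a call, and 28 changed sign. This total is no measure of robustness, because many genes were named for being called in both fits. Many of the alternatives also differ little from the main fit. With the unwanted factor 120 of the 156 values were kept, 21 lost and 5 gained a call, and 10 changed sign. With the unwanted factor, the sign changed for CXCL2 (0.13), CXCL8 (4.45), HSP90AA1 (1.69), NDC80 (0.31), PSMA3 (0.95), PSMC6 (1.36), RELA (-0.32), RPL7 (0.89), SUZ12 (0.24) and TTK (3.04). Because that factor nearly coincided with vehicle, these signs decide no direction, and the cause was not tested. With the trends removed it changed for CXCL2 (0.048, and 0.0448 with the replicate block) and ESR2 (0.11, and 0.12 with the replicate block). Without vehicle replicate 1, 2 or 3 or E2+ TNFα replicate 1, 2 or 3 as well, CXCL2 was at 0.053, 0.062, 0.028, 0.027, 0.10 and 0.015, ESR2 at 0.17, 0.059, 0.12, 0.15, 0.14 and 0.043, and CXCL8 at 0.12 without E2+ TNFα replicate 3. VIM ranged from -0.15 to 0.041 without single libraries with counts as deposited.

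Replicate numbers did not pair the samples of vehicle and E2+ TNFα (correlations of deviations of -0.31, 0.44 and -0.39). With the replicate block, 2870 genes (846 rises) were regulated relative to vehicle, 1237 with the trends removed, and 36 relative to E2. Depth limits what was detectable for genes of low count in every comparison. These choices of alternatives with left-out libraries and the trends removed, those relative to E2 and TNFα, and the split by pseudogenes were made after seeing the data.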

Other observations

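Among the genes that rose relative to E2, some outside the lists were high in both groups given TNFα, and they were chosen after their values were seen. EFNA1, an ephrin ligand, was at 11.9, 11.9 and 13.02 CPM in vehicle and 446, 413 and 495 CPM in E2+ TNFα libraries (log2 fold changes of 5.197 with counts as deposited and 4.76 with the trends removed). Its mean was 81.7 CPM in E2 and 528 CPM in TNFα cells, and the rise from E2 cells was 2.47. TNFAIP2, a gene induced by TNFα, rose from 128 to 1774 CPM (3.79 and 3.19), against 418 CPM in E2 and 1609 CPM in TNFα cells. PTX3, the secreted pentraxin of innate immunity, was at 60.6, 65.1 and 67.2 CPM in vehicle and 468, 421 and 438 CPM in E2+ TNFα libraries (2.78 and 2.83), with 94.2 CPM in E2 and 376 CPM in TNFα cells. Unlike TNF, IL1B and IRF1, these 3 were not called relative to TNFα cells.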
